A study of Mus musculus with 2 samples.

Results

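Neurotrophins and the ligands of the GDNF family are secreted proteins that keep embryonic neurons alive, guide their axons and set their identity. The 8 genes described here are receptors and ligands of both families: Ntrk2, Ntrk3 and Ngfr, which receive neurotrophins, the neurotrophins Bdnf and Ntf3, and Ret, Gfra1 and Gfra3, which receive ligands of the GDNF family. They were chosen by symbol, matched by Ensembl identifier, and are 8 of the 43346 mouse genes in the tables. All 8 were found in both libraries, together with 34 transcripts. For the receptors, forms that hold the kinase were compared with forms that lack it.

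The libraries were made from total RNA of the neural tube, the embryonic structure that becomes brain and spinal cord, of healthy B6NCrl mice at embryonic day 12.5. They form 1 group of 2 libraries, so no condition is compared and no p-value is given. Replicate 1 came from a pool of 120 embryos and replicate 2 from a pool of 88, both of males and females, under 1 donor identifier, with 10 ng of RNA longer than 200 nucleotides per library. The labels call the libraries biological replicates 1 and 2. They do not say whether the pools came from separate litters, so the spread between the pools may be partly technical.

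Trk receptors are tyrosine kinases: the product of Ntrk2 (TrkB) binds Bdnf and that of Ntrk3 (TrkC) binds Ntf3, while Ngfr (p75) binds all neurotrophins and has no kinase. Splicing also yields TrkB and TrkC proteins that keep the ligand-binding and membrane-spanning parts but end soon after the membrane, without the kinase. Ret is the kinase shared by the GDNF family, and the Gfra proteins are membrane-anchored co-receptors that bind the ligand and bring it to Ret. In the embryo these receptors are known from sensory and motor neurons, from neural crest derivatives and, for Ret and Gfra1, also from the developing kidney.

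The forms differ by short stretches of coding sequence, shown here because the shares described further on turn on them. All are read 5′ to 3′ in the sense of the transcript from the GENCODE M21 transcripts on GRCm38. Capitals mark what the form does not share with the form it is compared with, and lower case the 15 neighbouring bases on each side that is shown. The truncated Ntrk2 transcript, Ntrk2-202, leaves the kinase transcript, Ntrk2-201, after coding base 1393. Its own 35 bases lie in exon 12 of 12 (chr13:58932023-58932057, plus strand), and the first 45 of the 1070 coding bases that the kinase form has instead begin in exon 13 of 18 (chr13:58985802-58985846).
Ntrk2-202, truncated: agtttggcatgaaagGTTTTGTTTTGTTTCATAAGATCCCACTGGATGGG
Ntrk2-201, kinase form: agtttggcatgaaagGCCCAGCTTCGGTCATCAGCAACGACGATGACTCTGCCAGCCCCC
The truncated Ntrk3 transcript, Ntrk3-202, leaves Ntrk3-201 after coding base 1585 and has 251 bases of its own, in exons 13 and 14 of 14 (chr7:78304292-78304426 and chr7:78302632-78302747, minus strand). The kinase form goes on in exon 13 of 17 (chr7:78260370-78260414).
Ntrk3-202, truncated: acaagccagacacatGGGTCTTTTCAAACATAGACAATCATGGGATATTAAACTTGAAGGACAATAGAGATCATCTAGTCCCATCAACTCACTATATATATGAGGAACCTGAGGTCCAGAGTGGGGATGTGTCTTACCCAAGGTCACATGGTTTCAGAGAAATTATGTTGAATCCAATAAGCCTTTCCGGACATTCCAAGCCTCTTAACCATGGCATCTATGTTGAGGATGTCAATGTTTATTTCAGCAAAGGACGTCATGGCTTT
Ntrk3-201, kinase form: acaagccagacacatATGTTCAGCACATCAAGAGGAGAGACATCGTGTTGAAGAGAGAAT
Some Ntrk3 kinase transcripts carry inserts after coding base 2133, within the part that encodes the kinase. Ntrk3-205 has an insert of 42 bases (chr7:78204103-78204144), and Ntrk3-206 has a further 75 bases before it (chr7:78229487-78229561).
Ntrk3-205, insert: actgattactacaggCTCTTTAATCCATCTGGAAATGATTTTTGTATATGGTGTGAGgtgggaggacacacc
Ntrk3-206, further insert: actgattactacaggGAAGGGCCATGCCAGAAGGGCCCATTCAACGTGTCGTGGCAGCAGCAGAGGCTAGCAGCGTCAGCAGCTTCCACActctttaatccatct
Both Ret transcripts encode the kinase and part ways after coding base 3190. Ret-201 ends in a long tail of 155 bases (chr6:118153856-118154010, minus strand) and Ret-202 in a short one of 29 bases (chr6:118155259-118155287).
Ret-201, long tail: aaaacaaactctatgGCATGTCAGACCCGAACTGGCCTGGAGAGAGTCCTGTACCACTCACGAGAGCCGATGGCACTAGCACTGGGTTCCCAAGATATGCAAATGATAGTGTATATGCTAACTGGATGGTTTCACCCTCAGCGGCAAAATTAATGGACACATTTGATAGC
Ret-202, short tail: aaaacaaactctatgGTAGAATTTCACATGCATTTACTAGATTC
Gfra1-201 holds 15 bases that Gfra1-203 lacks, in exon 5 of 11 (chr19:58392573-58392587, minus strand).
Gfra1-201, insert: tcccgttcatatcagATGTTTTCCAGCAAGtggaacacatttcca

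**Figure D1:**
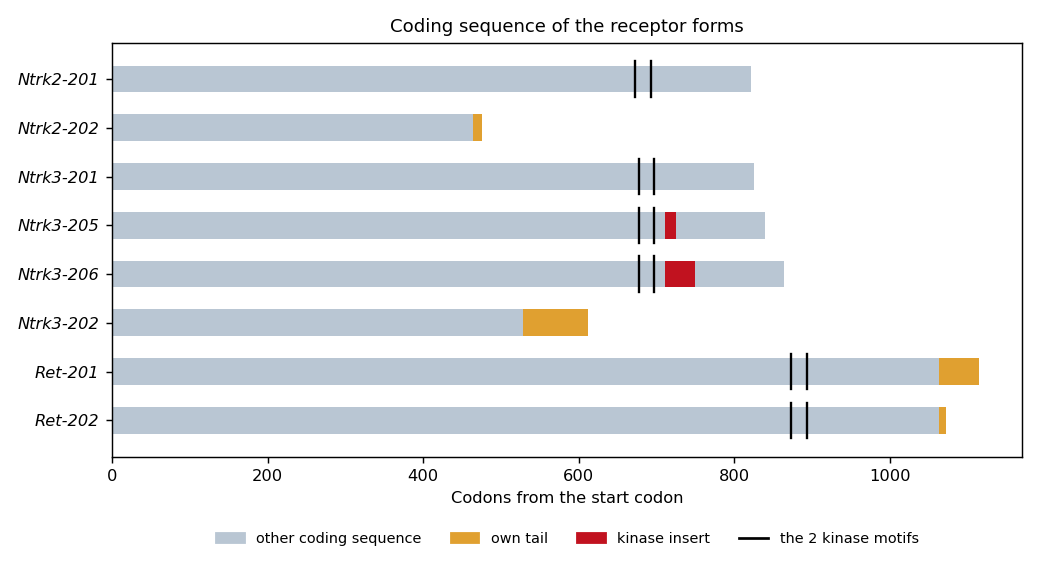
Coding sequence of the Ntrk2, Ntrk3 and Ret forms, in codons from the start codon (x axis), 1 bar per transcript. Orange is the tail not shared with the compared form, red the insert in the kinase, and black lines mark the 2 kinase motifs. Ntrk2-202 (476 codons) and Ntrk3-202 (612 codons) end before the place where the motifs lie in the kinase forms.

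Among the 8 genes the neurotrophin receptor Ngfr had the highest level and the neurotrophin Bdnf the lowest. Levels are TPM, a relative abundance corrected for transcript length and library depth. Ngfr (ENSMUSG00000000120, chr11:95568818-95587735, minus strand) stood at 87.2 TPM in replicate 1 and 104 TPM in replicate 2 (95.4 ± 11.6, SD, n = 2), from 5803 and 7161 expected counts. Its level was at the 88.4 percentile of the 15735 genes that averaged 1 TPM or more, whose median was 16.8 TPM. As the tissue is a mixture of cells, fewer cells of a type and less RNA per cell cannot be told apart, here and in all levels that follow.

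Ntrk2, the receptor of Bdnf (ENSMUSG00000055254, chr13:58806569-59133970, plus strand), had 28.2 and 29.6 TPM (28.9 ± 1.04, SD, n = 2), from 4143 and 4519 expected counts. Ntrk3, the receptor of Ntf3 (ENSMUSG00000059146, chr7:78175959-78738012, minus strand), had 10.9 and 12.7 TPM (11.8 ± 1.23, SD, n = 2), from 551 and 676 counts. The 3 receptors did not overlap in level over the libraries: the level of Ngfr was 3.10 and 3.50 times that of Ntrk2, and that of Ntrk2 was 2.58 and 2.34 times that of Ntrk3. Ngfr also stood above both Trk receptors summed, 2.23-fold in replicate 1 and 2.45-fold in replicate 2.

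The 2 ligands lay below all 3 receptors, Bdnf far below each and Ntf3 only a little below Ntrk3 but far below Ntrk2 and Ngfr. In replicate 1 the authors' deposited intervals of Ntf3 (8.63 to 11.1 TPM) and Ntrk3 (9.79 to 11.9 TPM) overlapped. Ntf3, which encodes neurotrophin-3 (ENSMUSG00000049107, chr6:126101412-126166910, minus strand), had 10.1 and 9.89 TPM (9.98 ± 0.127, SD, n = 2) from 254 and 260 counts. Bdnf, which encodes brain-derived neurotrophic factor (ENSMUSG00000048482, chr2:109674700-109727007, plus strand), had 2.24 and 1.53 TPM (1.89 ± 0.502, SD, n = 2) from 173 and 123 counts, at the 10.3 percentile of genes by level. Ntf3 was thus 4.50 and 6.46 times as high as Bdnf, and the 3 neurotrophin receptors summed to 10.3 and 12.8 times the 2 ligands, with Ngfr giving most of the receptor sum.

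Of the GDNF family, the co-receptors Gfra1 and Gfra3 stood above the kinase Ret in TPM. For Gfra3 this depends on the length correction. By CPM (counts scaled to library depth) Ret had 40.0 and 46.4, and Gfra3 20.1 and 27.5. Gfra1, the co-receptor that prefers GDNF (ENSMUSG00000025089, chr19:58235604-58455909, minus strand), had 50.3 and 62.4 TPM (56.3 ± 8.53, SD, n = 2) from 3708 and 4373 counts. Gfra3, which binds artemin (ENSMUSG00000024366, chr18:34689898-34720387, minus strand), had 16.9 and 23.6 TPM (20.2 ± 4.77, SD, n = 2) from 635 and 923 counts. Ret (ENSMUSG00000030110, chr6:118151745-118197718, minus strand) had 9.10 and 10.9 TPM (10.0 ± 1.27, SD, n = 2) from 1264 and 1556 counts.

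The 2 co-receptors together were 7.38 and 7.89 times as high as Ret in TPM. Gfra1 alone was 5.53 and 5.73 times as high, and Gfra3 alone 1.85 and 2.17 times. The Gfra1 level includes short models with incomplete coding sequence, and without them Gfra1 had 42.0 and 47.8 TPM. Ordered by mean TPM, the genes ran Ngfr, Gfra1, Ntrk2, Gfra3, Ntrk3, Ret, Ntf3 and Bdnf. Ret and Ntf3 did not differ beyond their spread and swapped places in replicate 1. The TPM values of the other neighbours did not overlap over the 2 libraries, Ntrk3 and Ret only narrowly. The deposited interval of Ntrk3 lay above that of Ret within each library, but the replicate 1 interval of Ntrk3 (9.79 to 11.9 TPM) overlapped the replicate 2 interval of Ret (10.0 to 11.1 TPM). By CPM Ret, at 40.0 and 46.4, stood above Ntrk3, at 17.4 and 20.2.

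**Figure D2:**
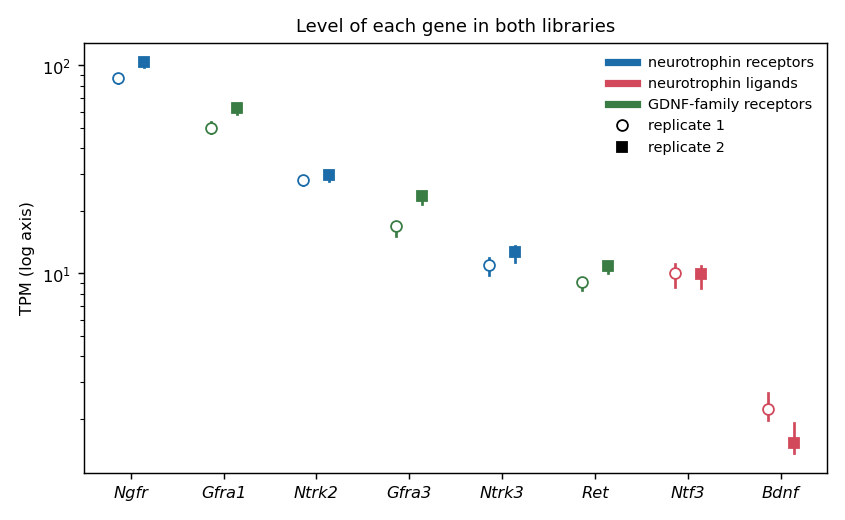
Level of the 8 genes in TPM (log axis), with 1 point per library and lines for the authors' deposited intervals, whose level is not stated. Ngfr is highest at 87.2 and 104 TPM and Bdnf lowest at 2.24 and 1.53 TPM, and the points of Ret and Ntf3 overlap.

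Most Ntrk2 RNA was assigned to the truncated form. Ntrk2-202, which lacks the kinase, had 19.0 and 20.3 TPM, against 9.11 and 9.37 TPM for the kinase form Ntrk2-201. The truncated form was higher in both libraries, 2.09-fold and 2.16-fold. It made up 67.6% and 68.4% of Ntrk2 TPM (68.0% ± 0.515, SD, n = 2). Of expected counts, where length is not corrected, it held 63.1% in replicate 1 (exact 95% binomial interval 61.6 to 64.6) and 63.9% in replicate 2 (62.4 to 65.3); these and all later intervals of count shares cover counting error only.

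Over 7772 protein-coding genes with 2 or more transcripts, the median share of TPM in coding transcripts shorter than 90% of the longest was 4.09% and the upper quartile 29.3%. The 68.0% of Ntrk2 lay at the 89.98 percentile of these genes, and at the 90.8 percentile of 6556 genes when only coding sequences complete in the annotation were used, a choice made after seeing the data. The last exon of Ntrk2-202, 5005 bases long in M21, shares no base with the exons of Ntrk2-201 and lies between its exons 12 and 13, within an intron of the kinase form. Whether reads of unspliced Ntrk2 RNA were counted there was not tested. The tables hold 2 transcripts of Ntrk2, where M21 holds 10, so forms annotated later could not receive reads.

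Ntrk3 was divided the other way. Its kinase transcripts summed to 8.28 and 9.70 TPM (8.99 ± 1.00, SD, n = 2), and its truncated transcript Ntrk3-202 had 1.61 and 1.88 TPM. The kinase forms were 5.14 and 5.16 times as high as the truncated form in TPM. They made up 75.8% and 76.6% of Ntrk3 TPM (76.2% ± 0.520, SD, n = 2), the truncated form 14.7% and 14.8% (14.8% ± 0.0669), and 2 non-coding transcripts 9.43% and 8.60%.

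Of Ntrk3 counts the truncated form held 13.1% in replicate 1 (exact 95% binomial interval 10.4 to 16.2) and 12.9% in replicate 2 (10.4 to 15.6). Among coding transcripts its share of TPM was 16.3%, at the 66.1 percentile of the 7772 genes. Both of its own exons, 13 and 14, lie between exons 12 and 13 of Ntrk3-201 and share no base with its exons. Whether reads of unspliced Ntrk3 RNA were counted there was not tested. The model of Ntrk3-202 was 2337 nucleotides long when quantified and is 3977 in M21, and reads from the added part could not be assigned to it. For Ntrk3, 6 transcripts were quantified, where M21 holds 20, so forms annotated later could not receive reads. Ntrk2 and Ntrk3 were close in kinase-form RNA as quantified, with Ntrk2 at 1.10 and 0.966 times the level of Ntrk3, on either side of equal. Their truncated forms stood apart, with Ntrk2 at 11.8 and 10.8 times Ntrk3.

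**Figure D3:**
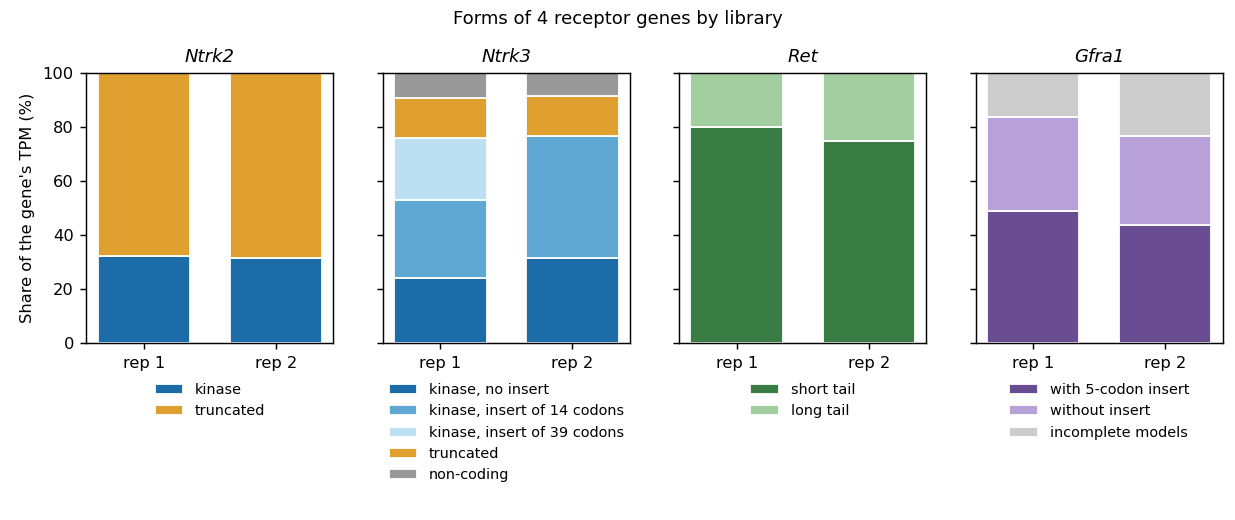
Share of each gene's TPM in its forms, as a percent, for both libraries of each gene. The truncated form holds 67.6% and 68.4% of Ntrk2 but 14.7% and 14.8% of Ntrk3.

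Within the Ntrk3 kinase forms, Ntrk3-201, which has no insert, had 2.64 and 4.00 TPM. Ntrk3-205, with the insert of 14 codons, had 3.14 and 5.70 TPM. Ntrk3-206, with 39 extra codons, had 2.50 TPM in replicate 1 and was at 0 in replicate 2. The authors' deposited intervals for Ntrk3-206 overlapped, from 0.0139 to 3.49 TPM in replicate 1 and from 0 to 2.37 TPM in replicate 2. Neither value lay within the interval of the other library.

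Both insert forms together gave the steadier value of 5.64 and 5.70 TPM, 51.6% and 44.99% of all Ntrk3 TPM. They made up 68.1% and 58.8% of the kinase TPM. The share of the leading transcript, Ntrk3-205, differed between libraries by 16.3 percentage points, at the 95.8 percentile of 8304 genes with 2 or more transcripts and at least 5 TPM in both, whose median difference was 3.04 points. By the authors' posterior-mean estimate, however, Ntrk3-205 held 35.2% and 37.5% of the gene and Ntrk3-206 15.7% and 7.65%. The deposited TPM intervals of Ntrk3-205 overlapped, so the split between the 2 insert forms is uncertain. The share of the truncated Ntrk2-202 differed by only 0.72 points, at the 17.6 percentile. The model of Ntrk3-201 was 3300 nucleotides long in the tables and is 19703 in M21, and reads from the added part could not be assigned to it.

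Ret RNA was mostly of the short-tailed form. Ret-202 had 7.27 and 8.14 TPM, and the long-tailed Ret-201 had 1.82 and 2.76 TPM. The short-tailed form was 3.99 and 2.95 times as high, and made up 80.0% and 74.7% of Ret TPM (77.3% ± 3.75, SD, n = 2). The deposited intervals of Ret-201 overlapped between libraries, from 0.910 to 2.56 TPM and from 1.72 to 3.65 TPM. Of Ret counts it held 17.1% in replicate 1 (exact 95% binomial interval 15.1 to 19.3) and 21.9% in replicate 2 (19.8 to 23.99), intervals that do not overlap but leave out the error of assigning reads to the 2 forms. No Ret transcript in the tables lacked the kinase motifs. The model of Ret-202 was 7341 nucleotides long in the tables and is 4497 in M21, and that of Ret-201 was 6064 and is 5456.

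Of Gfra1, transcripts with the insert of 5 codons summed to 24.5 and 27.3 TPM, and Gfra1-203, without it, had 17.5 and 20.5 TPM. The form with the insert was 1.40 and 1.33 times as high. Gfra1-201 led in both libraries with 43.9% and 34.9% of the gene. A further 16.5% and 23.4% of Gfra1 TPM went to 4 short models whose coding sequence is incomplete in the annotation, mainly Gfra1-204 with 8.31 and 10.2 TPM. These held only 3.32% and 4.14% of counts, and they are fragments of annotation that say nothing of a shortened protein. Ngfr and Gfra3 had 1 transcript each.

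The 2 ligands differed in how their transcripts vary. Ntf3-201 (258 codons) had 5.43 and 4.86 TPM and Ntf3-202 (271 codons) had 4.64 and 5.03 TPM, and the leading transcript was Ntf3-201 in replicate 1 and Ntf3-202 in replicate 2. A change of leading transcript occurred in 7.39% of the 8304 genes, and the shares of Ntf3-201, 53.9% and 49.1%, differed by 4.82 points. Bdnf had 11 transcripts with 9 distinct starts, of which 9 transcripts share 1 coding sequence of 249 codons and took 91.5% and 94.8% of Bdnf TPM.

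Bdnf-205, whose start at chr2 position 109693563 is the sixth of the 9 and lies 29819 bases before the coding exon, led in both libraries. It had 1.68 and 1.45 TPM, 75.1% and 94.9% of the gene. Bdnf-209 followed in replicate 1 with 0.31 TPM (13.9%) and was at 0 in replicate 2. The share of Bdnf-205 by the authors' posterior-mean estimate was lower, 56.3% and 46.8%. The 1.45 TPM of Bdnf-205 in replicate 2 lies above its deposited interval of 0.408 to 1.16 TPM. The share of a single start is therefore uncertain at 173 and 123 counts for the gene. Measured by length alone, only Bdnf-202 (289 codons) counts as full-length, with 0.09 TPM in replicate 1 and listed at 0 in replicate 2; Bdnf transcripts differ at the start of the protein and have no truncated receptor counterpart.

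Between the pools, 6 of the 8 genes were higher and 2 lower in replicate 2, beside 58.5% and 41.2% of the 15735 genes. None of the 8 differed by more than 2-fold on the log2(TPM + 1) scale, where 1.43% of all genes did. The median over all genes was 0.03. Gfra3 and Bdnf had the largest differences, in opposite directions, and which was larger depended on the scale. Gfra3 had 16.9 against 23.6 TPM, a log2 ratio of replicate 2 over replicate 1 of 0.46 on that scale. Its counts gave 0.45 (exact 95% interval 0.31 to 0.60). Bdnf had 2.24 against 1.53 TPM, with a log2 ratio of -0.36 in TPM + 1 and of -0.58 in counts (-0.92 to -0.24).

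Ngfr was higher in replicate 2 by a log2 ratio of 0.25 on the TPM + 1 scale and Ret by 0.24. Gfra1 differed by 0.30 in TPM + 1 but by 0.15 in counts (0.09 to 0.22), and its complete coding models alone had 42.0 and 47.8 TPM. Ntrk3 differed by 0.20, Ntrk2 by 0.07 and Ntf3 by -0.02 on the TPM + 1 scale. The deposited TPM intervals did not overlap, with replicate 2 higher, for 4 genes (Ngfr, Gfra1, Gfra3 and Ret), where 10.1% of all genes were so placed, and with replicate 2 lower for Bdnf, where 4.19% were. They overlapped for Ntrk2, Ntrk3 and Ntf3. At a limit of 25% between the larger and the smaller value, chosen after seeing the data, Gfra3 was higher, as 5.8% of genes were, and Bdnf lower, as 5.59% were.

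**Figure D4:**
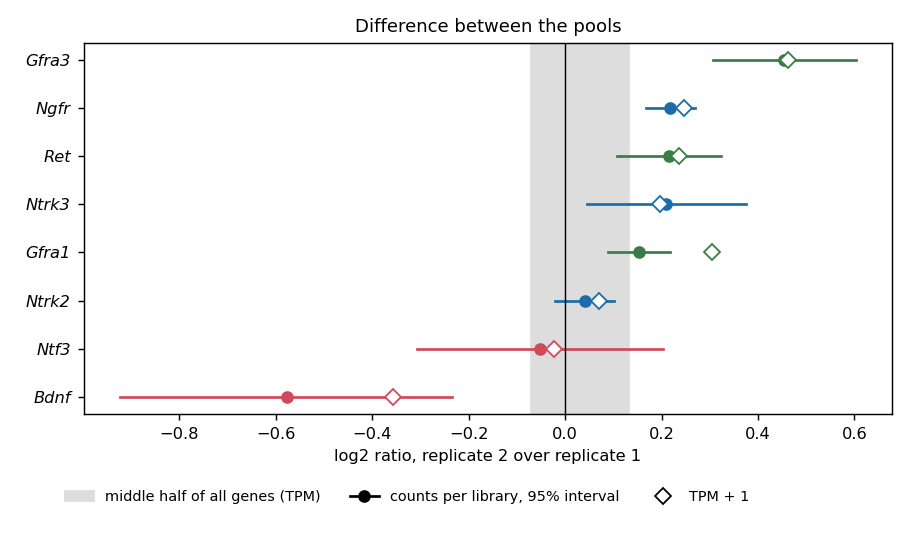
Log2 ratio of replicate 2 over replicate 1 for the 8 genes: filled points are counts per library with exact 95% intervals (counting error), open diamonds log2(TPM + 1), and the grey band is the middle of all genes between the quartiles of -0.07 and 0.13. Gfra3 (0.46 in TPM + 1) lies farthest above the band and Bdnf (-0.36) farthest below it.

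Markers of several cell types in the dissected tissue differed between the pools as well. Over all genes, 58.5% were higher and 41.2% lower in replicate 2, with intervals that did not overlap for 10.1% and 4.19%. Of 12 matched sensory ganglion markers, 11 reached 1 TPM and all 11 were higher in replicate 2, with a median log2 ratio of 0.49 and a summed level of 443 and 615 TPM. Their intervals did not overlap for 10 of 11. Isl1, a transcription factor of sensory and motor neurons, had 110 and 156 TPM, and Prph, the neuronal filament peripherin, had 84.2 and 132 TPM. Trpv1, the heat-gated channel, was near 0 at 0.32 and 0.81 TPM.

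Of 10 neural crest and Schwann cell markers 8 were higher and 2 lower (summed level 210 and 246 TPM), led by Ednrb, an endothelin receptor, at 106 and 129 TPM. Among these 10, intervals did not overlap for 3 with replicate 2 higher and for 1 with it lower, beside 10.1% and 4.19% of all genes. Motor neuron markers were split 5 and 5 (376 and 429 TPM), and their intervals did not overlap for 3 higher and 4 lower in replicate 2. The 3 were Isl1, which is also in the sensory ganglion list, Isl2 at 38.3 and 51.8 TPM, and Aldh1a2 at 74.97 and 83.2 TPM. The 4 were Mnx1 at 8.46 and 5.73, Lhx3 at 19.96 and 13.92, Lhx4 at 18.5 and 10.05 and Chat at 3.34 and 2.36 TPM. Muscle markers were lower in 8 of 8 (384 and 282 TPM), led by Actc1 at 131 and 88.0 TPM and Acta1 at 64.0 and 46.1 TPM. The part of these cell types in the differences of Ngfr, Gfra1, Gfra3, Ret and Bdnf was not tested.

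The remaining marker lists had median log2 ratios between -0.03 and 0.17. The 8 general neuron and 8 neural progenitor markers all reached 1 TPM in both libraries. These lists cannot tell the neural tube from other tissue that holds neurons and progenitors. General neuron markers summed to 2382 and 2622 TPM (7 of 8 higher), led by the tubulin Tubb3 at 1004 and 1030 TPM and by Stmn2 at 455 and 569 TPM. Neural progenitor markers summed to 3079 and 3163 TPM (3 of 8 higher), led by Fabp7 at 1469 and 1537 TPM and the filament gene Vim at 937 and 988 TPM. Markers of mesenchyme and meninges were also detected and summed to 915 and 937 TPM, led by the collagens Col3a1 at 397 and 420 TPM and Col1a1 at 181 and 173 TPM. Endothelial markers summed to 120 and 126 TPM, led by Cldn5 at 47.5 and 45.1 TPM and Kdr at 24.4 and 25.6 TPM. Of sympathetic and enteric neuron markers 2 of 5 reached 1 TPM in both libraries, with Th at 17.8 and 23.2 TPM, Dbh at 0.66 and 0.47 TPM and Hand2 at 0.31 and 0.11 TPM. Of kidney and ureteric bud markers 3 of 6 did, with Pax2, which spinal interneurons also express, at 19.3 and 18.1 TPM, Wnt11 at 7.57 and 5.91 TPM, Cdh16 listed at 0 in both and Six2 at 0.80 and 0.62 TPM.

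**Figure D5:**
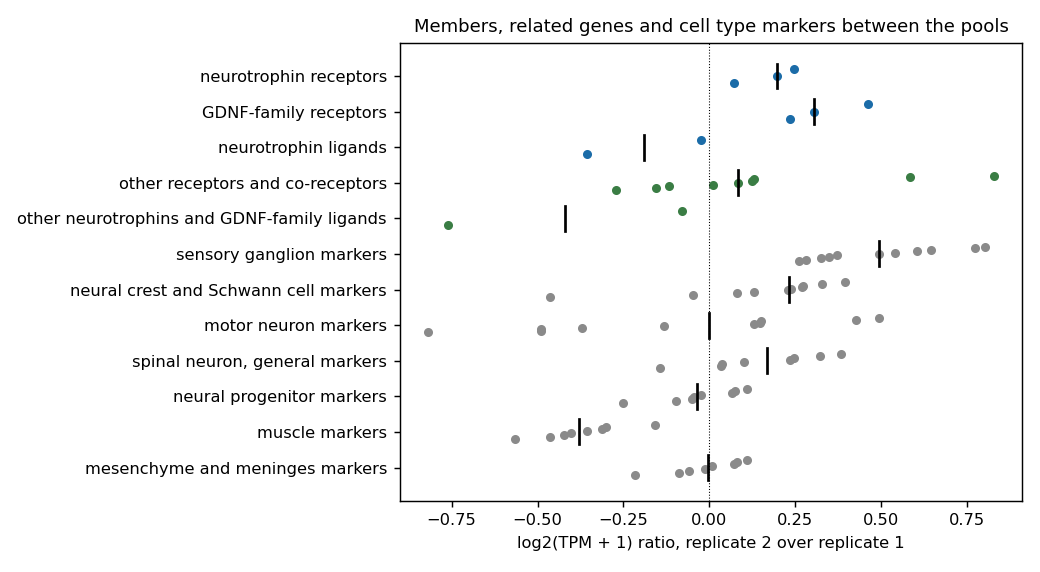
Log2 ratio of replicate 2 over replicate 1, log2(TPM + 1) scale, with 1 point per gene that averaged 1 TPM or more, for the 8 genes by role, the other ligands and receptors, and 7 marker lists; black bars are medians. Sensory ganglion markers (median 0.49) lie highest and muscle markers (median -0.38) lie low.

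The partners of the 8 genes were given by lists of 62 further genes of the pathways, of which 55 reached 1 TPM in both libraries. Of these 55, 38 were higher and 17 lower in replicate 2 (all genes: 58.5% and 41.2%), with a median log2 ratio of 0.11, and none passed 2-fold. Intervals did not overlap for 19 with replicate 2 higher and for 3 with it lower, beside 10.1% and 4.19% of all genes.

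Other ligands were low. Nrtn (neurturin) had 3.05 and 2.83 TPM and Artn (artemin, the ligand of Gfra3) 2.54 and 1.09 TPM. Ntf5 (neurotrophin-4), Gdnf and Pspn (persephin) were each under 1 TPM in both libraries. Gdnf itself had 0.28 and 0.37 TPM, while its co-receptor Gfra1 had 50.3 and 62.4 TPM.

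Among the other receptors, Gfra2, the co-receptor of neurturin, had 2.95 and 6.02 TPM. Its log2 ratio of 0.83 on the TPM + 1 scale was larger than that of any of the 8 genes. Gfra4 had 9.78 and 7.93 TPM, and Gfral, the receptor of GDF15, had no counts, which allows up to 0.0949 and 0.0895 CPM (counts scaled to library depth). Ncam1, an adhesion molecule that also binds GDNF, had 185 and 201 TPM.

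The sorting receptors of proneurotrophins were all present. Sort1 had 29.5 and 32.4 TPM, Sorl1 13.7 and 13.8 TPM, Sorcs2 10.0 and 9.14 TPM, Sorcs1 7.50 and 8.01 TPM and Sorcs3 8.18 and 7.24 TPM. The enzymes that trim proneurotrophins ranged up to Cpe, a carboxypeptidase, at 324 and 346 TPM, with Pcsk7 at 18.1 and 19.2 TPM, Pcsk2 at 8.32 and 10.2 TPM, and all 7 of the list detected.

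Downstream, all 7 listed partners of Ngfr were detected and all were higher in replicate 2, where 58.5% of all genes were higher and 41.2% lower. Their median log2 ratio was 0.15, with Maged1 at 0.05 and Bex3 at 0.04, near the 0.03 of all genes. Levels ran from 9.45 TPM for Traf6 in replicate 1 up to 784 and 812 TPM for Maged1, an adaptor that binds p75. Bex3, another p75 partner, had 536 and 549 TPM, and Lingo1, which forms a complex with p75 at the axon surface, 34.1 and 37.9 TPM. Of 15 adaptors of Trk receptors all were detected, 12 higher and 3 lower in replicate 2, with Grb2 at 138 and 149, Crk at 105 and 113 and Plcg1, the phospholipase bound by Trk, at 74.9 and 81.0 TPM. Of 5 adaptors of Ret, 4 were detected, led by Grb10 at 263 and 277, Dok5 at 34.6 and 31.1 and Dok4 at 24.6 and 32.5 TPM, with Grb7 under 1 TPM.

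Of 7 factors that act downstream of or beside these receptors, 6 were detected. Etv5 had 14.7 and 19.1 TPM, Etv1 12.2 and 15.3 TPM and Etv4 8.83 and 12.7 TPM, while Egr3 was near 0 at 0.04 TPM in both. Of 5 negative regulators all were detected, 4 lower in replicate 2, where 41.2% of all genes were lower. Dusp6, an ERK phosphatase, had 32.4 and 31.5 TPM, and Lrig1, which restrains receptor kinases, 14.9 and 14.3 TPM. Spry2, an inhibitor of receptor kinase signalling, had 28.0 and 17.2 TPM.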

How the data were processed

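Total RNA-seq libraries of embryonic neural tube were deposited as 1 gene table and 1 transcript table per library, and 1 group of 2 replicates was read from the labels. Per the deposited read-me text, values come from transcriptome alignments to mm10 with GENCODE M4. Neither the quantification program nor the use of strand in counting is stated in the labels or headers, so overlapping and antisense genes cannot be told apart. By its title the series has a successor, which was not used here. The deposited expected counts are the authors' estimates of reads per gene or transcript and summed to 32612423 and 34555002. The authors also deposited TPM and FPKM, both corrected for length and depth. A transcript's share of its gene is a deposited percent. The deposited interval bounds of TPM are a signal whose level is not stated. In the deposited tables some TPM values, such as that of Ngfr in replicate 2, lie outside their own bounds.

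Names, coding sequences and sequences shown were taken from GENCODE M21 (GRCm38, as mm10) by identifier without version. Forms of Ntrk2, Ntrk3 and Ret were classed by the kinase motifs HRD and DFG, in that order, in the translated coding sequence. Forms of the other genes were classed by a coding length of at least 90% of the longest. Ratios used a pseudocount of 1 TPM, over the 15735 genes averaging 1 TPM or more, which understates differences of low genes. A gene was detected at 1 TPM in both libraries. Intervals of counts are exact binomial at 95% and cover counting error only. A count of 0 allows up to 3 counts. TMM factors (edgeR 4.0.16) and DESeq2 (1.42.0) size factors on rounded expected counts served as alternatives, in R 4.3.3. Other steps used Python 3.11.15, pandas 2.3.3, numpy 2.4.6, scipy 1.17.1 and matplotlib 3.10.9.

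All 8 genes were named. The rule for the pathway lists takes all ligands and receptors, and of the other lists the 3 highest by mean TPM and up to 3 genes under 1 TPM in both libraries. Of marker lists the 2 highest and those near 0 were named. Of transcripts, those with at least 10% of the gene in either library were named, and truncated forms with at least 0.5 TPM in both. Some genes that these rules take are not reported here. Traf6, Bdnf-202 and the motor neuron markers Isl2, Mnx1, Lhx3, Lhx4 and Chat were named beside these rules after their values were seen. One sensory ganglion marker, Drgx, was not matched. The members and lists were chosen with earlier results of these data known. The replicate comparison was tested on simulated data of 15735 genes: of genes set 3-fold or 4-fold apart 100% passed the 2-fold limit, and of unchanged genes 0.798%. Counts were drawn with counting error only, and changes were set only in genes of a higher TPM than Bdnf. The simulation therefore checks the calculation and cannot show the spread between pools or how changes in low genes are called.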

Additional observations from a re-analysis of the deposited data

How the results depend on the processing

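No paired analysis was possible because the samples form 1 group. With 2 libraries the spread between replicates is poorly known, and depth limits Bdnf (173 and 123 counts) and single Ntrk3 transcripts. Over 154 recomputed values, 125 stayed within the spread or limit of the reported value, 29 moved and 0 reversed. These include 29 values without replicate 1 and 29 without replicate 2, most of which stay within a 2-library spread by construction. A reversal could be called only for log2 ratios of genes whose deposited intervals did not overlap. The cause of a move was not tested except where the construction shows it. On the FPKM scale, which is not scaled to a fixed sum, the levels were 57.5 for Ngfr, 33.96 for Gfra1, 17.4 for Ntrk2, 12.2 for Gfra3, 7.12 for Ntrk3, 6.03 for Ret, 6.03 for Ntf3 and 1.14 for Bdnf. The posterior-mean level of Ntf3 was 9.77 TPM. By CPM, which is not per length, 3 of 8 genes kept their place in the order, which ran Ngfr, Ntrk2, Gfra1, Ret, Gfra3, Ntrk3, Ntf3 and Bdnf.

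The log2 ratio of Gfra1 was 0.14 with TMM factors and 0.14 with DESeq2 size factors, against 0.30 in TPM. With a pseudocount of 0.1, 2 pathway genes (Gfra2 and Artn) passed 2-fold against 0. At a limit of 25%, chosen after seeing the data, 2 members passed. Without the length correction (expected counts), the truncated share of Ntrk2 was 63.5%, that of Ntrk3 13.0%, the kinase share of Ntrk3 83.9%, its non-coding share 3.13%, the insert share of Gfra1 55.2% and its share in complete coding models 96.3%. With posterior-mean TPM the Ntrk3 shares were 75.3% kinase, 14.9% truncated and 9.78% non-coding, and that of Bdnf-205 was 51.4%. Over coding transcripts only, Ntrk3 had 83.7% kinase, 16.3% truncated and 53.1% with an insert. Leaving out either replicate gives the value of the other library, and moved 1 value, the median level of the 7 downstream factors, from 3.33 TPM to 3.79 TPM without replicate 1.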
